A study of Bubalus bubalis with 6 samples.

Results

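The laminin, collagen IV and other basement membrane genes of buffalo muscle stem cells (MuSCs) were compared between the proliferation and the differentiation phase. The group was given as a list of gene symbols, with no threshold on measured values: LAMA1, LAMA2, LAMA4, LAMB1, LAMC1, COL4A1, COL4A2, NID1, NID2 and HSPG2. All 10 are listed in the gene table, which holds 24616 genes, and all 10 are among the 15576 genes tested. The series has 3 samples of proliferating MuSCs in growth medium with fetal bovine serum (GM) and 3 samples of MuSCs switched near confluence to differentiation medium with horse serum (DM). The study describes several days in this medium, but its methods and results differ on the length, so the day of sampling is not settled. The cells were primary cultures taken from the longissimus muscle of buffalo (Bubalus bubalis) fetuses by collagenase and trypsin digestion, and no genetic change is named for either group. No sorting step is named, and the sources used here do not say how many fetuses were used or whether each sample was a culture of its own. The p-values then measure only the spread between these samples, which may be technical.

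Basement membranes are thin sheets of matrix on the surface of muscle fibers, vessels and epithelia. Laminins, which are trimers of an alpha, a beta and a gamma chain, form a network on the cell surface, and collagen IV forms a separate, covalently linked network. Nidogens bridge these networks, and perlecan, the product of HSPG2, is a heparan sulfate proteoglycan that binds to both. In skeletal muscle, satellite cells lie between the basement membrane and the fiber, and loss of the LAMA2 chain causes congenital muscular dystrophy.

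The genes are described by cattle (Bos taurus) Ensembl identifiers and positions as the table gives them, without a named genome build. LAMA1 (ENSBTAG00000018160) lies on chromosome 24 from 40384895 to 40508687, LAMA2 (ENSBTAG00000010229) on chromosome 9 from 68129102 to 68665593, and LAMA4 (ENSBTAG00000008817) on chromosome 9 from 38644310 to 38810902. LAMB1 (ENSBTAG00000011412) lies on chromosome 4 from 49263419 to 49339822 and LAMC1 (ENSBTAG00000011966) on chromosome 16 from 65545497 to 65662819. COL4A1 (ENSBTAG00000012849) lies on the minus strand of chromosome 12 from 88876125 to 89009422, and COL4A2 (ENSBTAG00000025210) follows on the plus strand from 89112423 to 89165255, so that the pair lies head to head. No listed gene lies between them in the cattle positions, and none does in the RefSeq table of the buffalo assembly NDDB_SH_1. NID1 (ENSBTAG00000007244) is on chromosome 28 from 8733209 to 8829937, NID2 (ENSBTAG00000021945) on chromosome 10 from 44894657 to 44986659 and HSPG2 (ENSBTAG00000017122) on chromosome 2 from 131517579 to 131587498. Each of the 10 genes has 1 transcript in the mRNA table. The only other listed gene inside any of their intervals is a microRNA gene in LAMB1, with at most 1 count in any sample.

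Counts on genes summed to between 36657735 and 40305237 per GM sample and between 35615864 and 38177614 per DM sample. Pearson's r of log2(CPM + 1) across the tested genes came to 0.998 within each GM pair, 0.997 between DM replicates 1 and 2, and 0.991 between DM replicate 3 and either of them. DM replicate 3 therefore stood apart from the other DM samples, and results that rest on it are also given without it. Expression is given as counts, as CPM (counts scaled to library size with TMM factors, mean ± SD, n = 3 samples per group) or, where genes are compared with each other, as the deposited RPKM, which divides counts by gene length and by the sample's summed gene counts. Fold changes are DM over GM on the log2 scale from edgeR's quasi-likelihood test. A gene was called when its log2 fold change passed 1 in size with a Benjamini-Hochberg adjusted p-value under 0.05 over all tested genes. Of 7 muscle genes tested as a check of the phases, 3 were called higher in DM samples (CKM, MYH3 and MYOG) and MYF5 was called lower. Among all tested genes 15.0% were called higher and 10.3% lower. MYMK, also chosen for this check, was not listed by symbol. PAX7, MYOD1 and DES had log2 fold changes of -0.92, 0.90 and -0.15 without a call. CKM, the muscle creatine kinase, was at 0.577 to 1.56 CPM in the GM samples against 85.4 to 107 CPM in the DM samples.

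Of the 10 genes, edgeR called 6 higher and 1 lower in DM samples. Among all tested genes 25.3% were called, 15.0% as higher and 10.3% as lower. The genes called higher were the nidogen genes NID1 and NID2, the laminin alpha genes LAMA2 and LAMA4, and the collagen IV genes COL4A1 and COL4A2. LAMA1 was called lower, and LAMB1, LAMC1 and HSPG2 were not called. The median log2 fold change of the 10 genes was 1.40, and that of all tested genes was 0.03. GM and DM samples did not overlap in CPM for 9 of the 10 genes, against 68.8% of all tested genes. Together the 10 genes took 0.417 ± 0.0105% of counts in the GM samples against 0.861 ± 0.0485% in the DM samples, without overlap (exact two-sided permutation test, p = 0.1, the smallest that 3 samples against 3 allow).

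**Figure D1:**
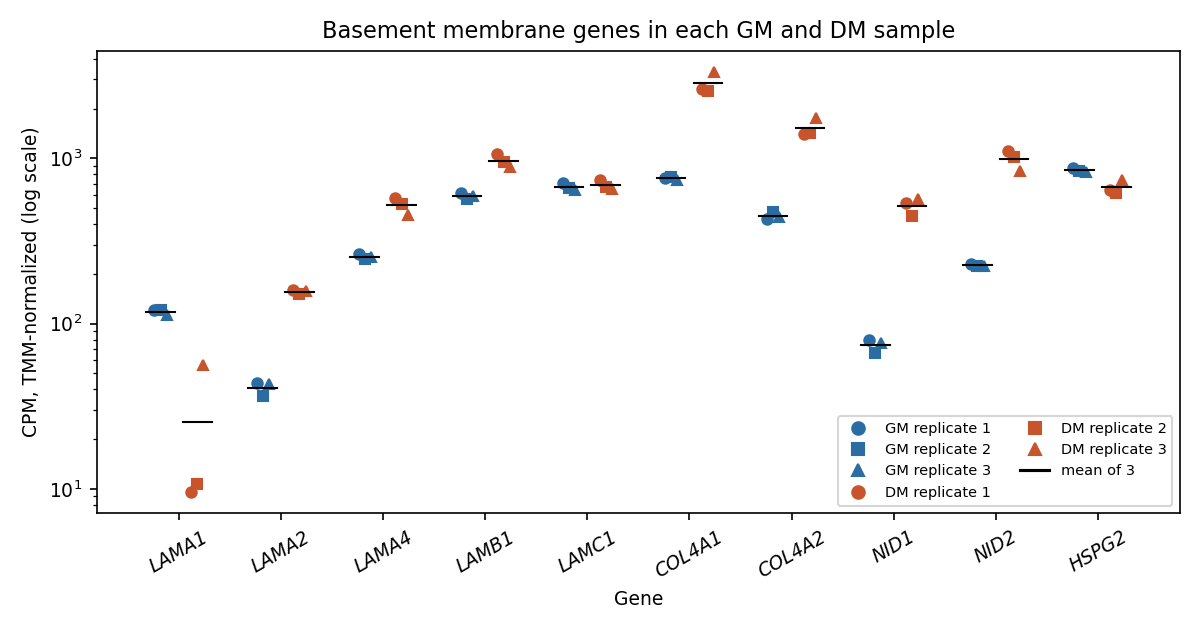
CPM after TMM scaling (log axis) of the 10 basement membrane genes in each of 3 GM samples (blue) and 3 DM samples (orange), with marker shapes for replicates and bars for group means. The 6 genes called higher sit above their GM samples in each DM sample, LAMC1 overlaps, and DM replicate 3 of LAMA1 sits at 55.9 CPM, apart from 9.59 and 10.7 CPM in the other DM samples.

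Among the laminin alpha genes, LAMA1 encodes the chain of early embryonic basement membranes. It held 5030, 5008 and 4282 counts in GM replicates 1, 2 and 3, against 324, 390 and 2069 counts in DM replicates 1, 2 and 3. All DM samples were below all GM samples, but DM replicate 3 was far above the other DM samples. LAMA1 fell from 118 ± 4.58 CPM to 25.4 ± 26.4 CPM (edgeR log2 fold change -2.21 ± 0.53 SE, adjusted p = 0.00397). Without DM replicate 3 the log2 fold change was -3.54, and without DM replicate 1 it was -1.81, both called lower. LAMA1 in DM replicate 3 stood at 5.52 times the mean CPM of DM replicates 1 and 2. Ranked by this ratio with 0.5 CPM added to both terms, only 2 of the 8981 genes that averaged 10 CPM or more stood higher. The DM replicate 3 value of LAMA1 had been marked for notice when the group was given, so this rank is a description and tests nothing. For the other 9 genes the ratio without the added 0.5 CPM lay between 0.794, for NID2, and 1.29, for COL4A1.

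The genes whose log2 CPM followed LAMA1 most closely over the 6 samples were STARD13, POSTN, CENPU, PMM1 and RIN3, with Pearson's r of 0.9969 to 0.9995 among 8980 genes compared. These r values are a description over 6 samples that share the split into GM and DM. Since they were picked for their likeness to LAMA1, the place of DM replicate 3 between the other DM samples and the GM samples in all 5 follows from that choice. POSTN, which encodes the matrix protein periostin, was at 472, 447 and 450 CPM in GM replicates 1, 2 and 3, against 174.5, 189 and 354 CPM in DM replicates 1, 2 and 3. CENPU was the only one of the 5 that passed both thresholds, with a log2 fold change of -1.08.

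LAMA2 encodes the alpha chain of the main laminin around adult muscle fibers. Its counts were 1802, 1516 and 1631 in GM replicates 1, 2 and 3, against 5418, 5514 and 5792 in DM replicates 1, 2 and 3. The DM samples were close to each other, DM replicate 3 included, and all exceeded the GM samples. LAMA2 rose from 41.0 ± 3.93 to 156 ± 4.90 CPM (edgeR log2 fold change 1.93 ± 0.08 SE, adjusted p = 1.66e-08).

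LAMA4, which is known from vessel walls and from developing muscle, held 10970, 10186 and 9589 counts in GM replicates 1, 2 and 3. In DM replicates 1, 2 and 3 it held 19405, 19468 and 16735 counts. The groups did not overlap, and DM replicate 3 was the lowest DM sample. The edgeR log2 fold change of 1.03 ± 0.09 (SE, adjusted p = 2.01e-06) lay close to the minimum for a call. It was 0.93 when scaled by library size only and 0.96 without DM replicate 1, and LAMA4 was then not called.

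Of the alpha genes outside the 10, LAMA5, which encodes a chain of many mature basement membranes, was called lower and LAMA3 was not called. LAMA5 held 25297, 24848 and 23395 counts in the GM samples against 5941, 6402 and 4509 in the DM samples. The edgeR estimate was -1.95 ± 0.12 on the log2 scale (SE, adjusted p = 2.71e-07). LAMA3, a chain of epithelial laminins, held 28 to 54 counts in GM samples, 32 and 36 counts in DM replicates 1 and 2 and 115 counts in DM replicate 3.

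Per length, the alpha genes summed to similar levels in both phases while their makeup differed. The summed RPKM of LAMA1 to LAMA5 was 118 ± 3.04 in the GM samples against 118 ± 9.28 in the DM samples. LAMA5 made up 46.8 ± 0.791% of this sum in the GM samples against 11.2 ± 1.44% in the DM samples. LAMA4 made up 38.2 ± 0.618% and 72.8 ± 2.56%, and was thus the alpha gene of highest RPKM in every DM sample. LAMA2 went from 3.78 ± 0.287% to 13.5 ± 1.17%. LAMA1 made up 10.6 to 11.6% in GM samples, 0.780 and 0.924% in DM replicates 1 and 2, and 5.40% in DM replicate 3.

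**Figure D2:**
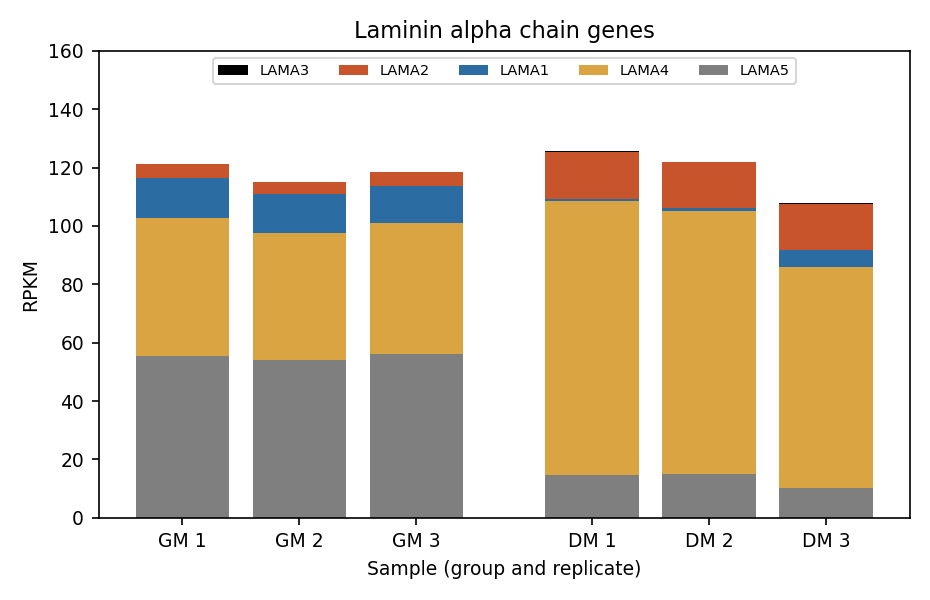
Deposited RPKM of the 5 laminin alpha genes, stacked for each GM and DM sample. The total stays between 108 and 126 RPKM, while LAMA5 (grey) and LAMA1 (blue) take a smaller part and LAMA4 (yellow) and LAMA2 (orange) a larger part of each DM bar, and LAMA1 is thicker in DM replicate 3 than in the other DM samples.

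Within the sum of LAMA1, LAMA2 and LAMA4 alone, the share of LAMA1 went from 20.9 ± 0.930% to 2.64 ± 2.90%, with 0.883, 1.06 and 5.99% in DM replicates 1, 2 and 3. The share of LAMA2 went from 7.11 ± 0.524% to 15.2 ± 1.10%, and that of LAMA4 from 71.9 ± 0.406% to between 77.5 and 84.6%. None of these shares overlapped between GM and DM samples (exact two-sided permutation test, p = 0.1 each, the smallest that 3 against 3 allow).

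LAMB1 and LAMC1 encode the beta and gamma chains that are shared by most laminins. LAMB1 held 25745, 23636 and 22379 counts in GM replicates 1, 2 and 3, against 36011, 34552 and 32734 counts in DM replicates 1, 2 and 3. The groups did not overlap, and LAMB1 was 1.63-fold higher in DM samples (edgeR log2 fold change 0.70 ± 0.08 SE, adjusted p = 1.59e-05), which is below the minimum fold for a call. LAMC1 held 29565, 27485 and 24375 counts in the GM samples against 25071, 24591 and 24076 in the DM samples. Its CPM overlapped between groups, and its log2 fold change was 0.03 with a 95% interval from -0.12 to 0.19 (adjusted p = 0.692 from edgeR). The sign of the LAMC1 estimate was negative with library size alone and without DM replicate 1.

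The ratio of LAMB1 to LAMC1 within a sample does not depend on scaling between libraries. In RPKM it was 0.788, 0.778 and 0.831 in GM replicates 1, 2 and 3, against 1.30, 1.27 and 1.23 in DM replicates 1, 2 and 3. LAMC1 was thus the higher of the pair in every GM sample and LAMB1 in every DM sample. The difference of the log2 ratios was 0.67 (exact two-sided permutation test, p = 0.1, the smallest that 3 against 3 allow), and raw counts gave ratios on the same sides of 1 (0.860 to 0.918 in the GM samples against 1.36 to 1.44 in the DM samples).

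Of the other beta genes, LAMB2, the beta chain of synaptic muscle laminins, was at 263 to 273 CPM in the GM samples against 276 to 288 CPM in the DM samples. Its log2 fold change of 0.08 had a 95% interval from -0.04 to 0.21, and its sign turned with library size alone. LAMB3, an epithelial chain, was at 8.89 to 11.3 CPM in the GM samples against 5.84 to 8.08 CPM in the DM samples and was not called. LAMB4 held 0 counts in each GM sample and at most 1 count in a DM sample, and was not tested.

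LAMC3, a gamma chain gene of low level, held 34, 46 and 19 counts in the GM samples against 16, 8 and 11 in the DM samples. It was called lower (adjusted p = 0.0274 from edgeR), but not without GM replicate 1 (adjusted p = 0.0700), GM replicate 2 (0.128) or DM replicate 2 (0.0927).

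COL4A1 and COL4A2 encode the chains of the collagen IV trimer that occurs in nearly all basement membranes. COL4A1 held 31318, 32147 and 28024 counts in GM replicates 1, 2 and 3, against 88926, 94024 and 123632 counts in DM replicates 1, 2 and 3. It rose from 756 ± 16.8 to 2848 ± 428.5 CPM (edgeR log2 fold change 1.91 ± 0.10 SE, adjusted p = 6.00e-08). COL4A2 held 17848, 19818 and 16703 counts in the GM samples against 47237, 52343 and 65163 in the DM samples. Both genes were highest in DM replicate 3, and both had every DM sample above every GM sample. COL4A2 rose from 449 ± 24.2 to 1530 ± 201 CPM (edgeR log2 fold change 1.77 ± 0.09 SE, adjusted p = 7.19e-08).

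The head-to-head pair kept a narrow ratio. COL4A1 over COL4A2 in RPKM was 1.51, 1.40 and 1.44 in GM replicates 1, 2 and 3, against 1.62, 1.54 and 1.63 in DM replicates 1, 2 and 3. The DM ratios were all above the GM ratios, by 0.14 on the log2 scale (exact two-sided permutation test, p = 0.1, the smallest that 3 against 3 allow). The difference is small beside the rise of either gene.

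The remaining collagen IV genes were much lower per length. COL4A5 and COL4A6, an X-linked pair that forms other collagen IV trimers, were both called higher. COL4A5 held 473, 392 and 380 counts in the GM samples against 1355, 1383 and 2070 in the DM samples (edgeR log2 fold change 2.12 ± 0.15 SE, adjusted p = 5.51e-07). COL4A6 held 45, 37 and 51 counts in the GM samples against 160, 171 and 308 in the DM samples (edgeR log2 fold change 2.42 ± 0.28 SE, adjusted p = 2.49e-05). As with COL4A1 and COL4A2, DM replicate 3 was the highest sample of both. COL4A3 held at most 5 counts in any sample. COL4A4 held 27 to 37 counts in the GM samples and 42, 30 and 123 counts in DM replicates 1, 2 and 3. It was not called (adjusted p = 0.0528 from edgeR), though it was with DESeq2 (adjusted p = 0.0297) and without DM replicate 1 or 2. Without DM replicate 3 its log2 fold change was 0.36 (adjusted p = 0.374 from edgeR). COL4A1 and COL4A2 together took the bulk of collagen IV RPKM, with COL4A1 at 58.5 ± 0.869% in the GM samples against 60.8 ± 0.633% in the DM samples, and COL4A2 at 40.4 ± 0.993% and 38.0 ± 0.733%. The summed RPKM of the 6 collagen IV genes was 231 ± 6.96 in the GM samples against 785 ± 115 in the DM samples.

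**Figure D3:**
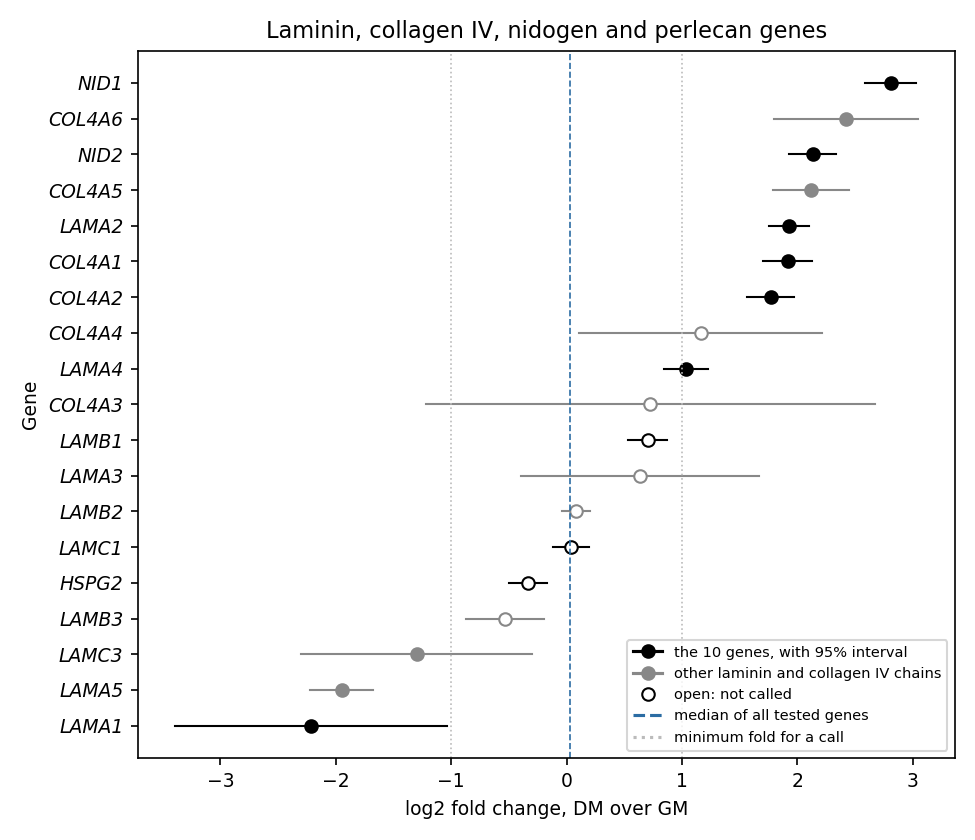
Log2 fold change of DM over GM with its 95% interval (edgeR) for the 10 basement membrane genes (black) and other laminin and collagen IV chain genes named in the text (grey), with filled points for called genes, dotted lines at the minimum fold and a dashed line at the median of all tested genes. NID1 has the highest value and LAMA1 the lowest, with the widest interval of the 10 genes, from -3.39 to -1.04.

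NID1 and NID2 encode the nidogens that link laminin to collagen IV. NID1 held 3284, 2766 and 2892 counts in GM replicates 1, 2 and 3, against 18113, 16462 and 20978 counts in DM replicates 1, 2 and 3. It rose most of the 10 genes, from 74.0 ± 6.65 to 518 ± 60.7 CPM (edgeR log2 fold change 2.81 ± 0.10 SE, adjusted p = 7.63e-09). NID2 held 9475, 9330 and 8444 counts in the GM samples against 37198, 37186 and 31109 in the DM samples. For both genes the groups were far apart, but DM replicate 3 was the highest DM sample of NID1 and the lowest of NID2. NID2 rose from 225 ± 2.98 to 986 ± 133 CPM (edgeR log2 fold change 2.13 ± 0.09 SE, adjusted p = 2.27e-08).

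NID1 over NID2 in RPKM was 0.398, 0.340 and 0.393 in GM replicates 1, 2 and 3, against 0.559, 0.508 and 0.774 in DM replicates 1, 2 and 3. NID2 was the higher of the pair in every sample. The log2 ratio was higher in DM samples by 0.68 (exact two-sided permutation test, p = 0.1, the smallest that 3 against 3 allow), and by 0.50 without DM replicate 3.

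**Figure D4:**
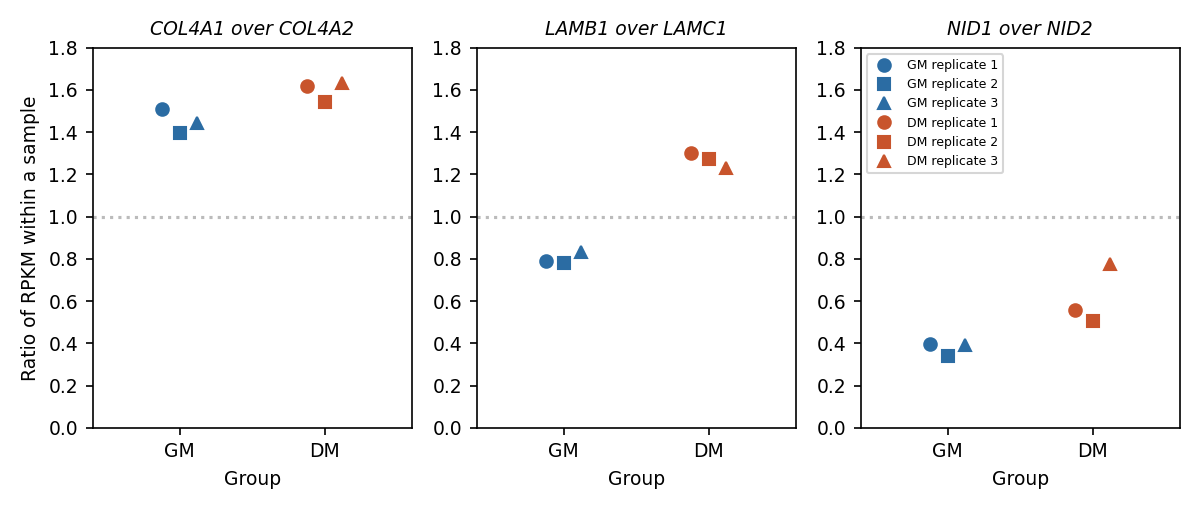
Ratio of RPKM within each sample for COL4A1 over COL4A2, LAMB1 over LAMC1 and NID1 over NID2 in GM (blue) and DM (orange) samples, with a dotted line at equal RPKM. GM and DM points do not overlap in any panel, and the line is crossed only by LAMB1 over LAMC1, from 0.778 to 0.831 in GM samples to between 1.23 and 1.30 in DM samples.

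HSPG2 held 36299, 34649 and 31305 counts in GM replicates 1, 2 and 3, against 21822, 22700 and 27351 counts in DM replicates 1, 2 and 3. Every DM sample was below the GM samples in CPM, with DM replicate 3 the closest to them. The mean went from 845 ± 26.8 to 668.5 ± 62.5 CPM (edgeR log2 fold change -0.34 ± 0.07 SE, adjusted p = 0.00227), short of the minimum fold for a call. With an adjusted p-value under 0.05 and no minimum fold, HSPG2 and LAMB1 would join the calls, which makes 9 of the 10 genes against 63.0% of all tested genes.

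Ordered by mean RPKM, the 10 genes ran in GM samples as LAMC1 (138), COL4A1 (135), LAMB1 (110), COL4A2 (93.6), HSPG2 (65.1), NID2 (50.1), LAMA4 (45.2), NID1 (18.9), LAMA1 (13.2) and LAMA2 (4.48). LAMC1 and COL4A1 overlapped between samples, and no other neighbors did. In DM samples the order was COL4A1 (477), COL4A2 (298), NID2 (205), LAMB1 (168), LAMC1 (132), NID1 (123), LAMA4 (86.4), HSPG2 (48.1), LAMA2 (15.9) and LAMA1 (2.65). There NID2 overlapped with LAMB1, and LAMC1 with NID1. The levels rest on cattle gene lengths, from 4049 bases for NID1 to 13423 bases for HSPG2, and how far buffalo reads were counted equally well on each gene was not tested.

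Several lists of genes linked to the basement membrane were tested in the same fit and are described by their counts of calls. Of 22 other components, all were tested, and 8 were called higher and 4 lower (list median 0.91 on the log2 scale), beside 15.0% and 10.3% of all tested genes. COL18A1, whose product carries the endostatin domain, rose from 22.2 ± 1.10 to 129 ± 37.0 CPM, and COL15A1, its close relative, fell from 20.8 ± 1.23 to 4.11 ± 0.952 CPM. NTN1, the guidance factor netrin, fell by 3.58 on the log2 scale, and SMOC1 fell by 1.91. NPNT, an integrin ligand, rose by 3.30 on the log2 scale, from 8 to 20 counts in GM samples to 86, 113 and 204 counts in DM replicates 1, 2 and 3. FREM2 was called higher (log2 fold change 3.27) from 2, 5 and 0 counts in the GM samples and 2, 6 and 56 counts in DM replicates 1, 2 and 3. Without DM replicate 3 its log2 fold change was 0.94 (adjusted p = 0.447 from edgeR), and the call was also lost without any single GM sample.

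Receptors for laminin and collagen IV formed a list of 14 genes, of which 1 was called higher and 3 lower, so that 4 were called beside 25.3% of all tested genes. All 14 had an adjusted p-value under 0.05, beside 63.0% of all tested genes, with 11 of them lower and 3 higher in DM samples, and the median log2 fold change was -0.66. ITGA7, the laminin-binding integrin alpha subunit of muscle, fell from 253 ± 13.2 to 64.8 ± 8.81 CPM (edgeR log2 fold change -1.96, adjusted p = 5.02e-08). The syndecan gene SDC4 fell by 1.48 on the log2 scale and SDC3 rose by 1.18. ITGA2 was called lower at a log2 fold change of -1.02, from 75 to 102 counts in the GM samples against 19, 36 and 60 in the DM samples, and was not called without GM replicate 1 (adjusted p = 0.0552), GM replicate 2 (0.0896), DM replicate 1 (0.0701) or DM replicate 2 (0.0720). ITGB1, the common beta subunit, and DAG1, which encodes dystroglycan, were named after their values were seen. Their log2 fold changes were -0.65 and -0.62, below the minimum for a call.

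Among genes for folding, export and crosslinking of these chains, 20 of 22 were tested, and 1 was called higher and 2 lower (list median 0.15 on the log2 scale), beside 25.3% of all tested genes called in either direction. LOXL2, an enzyme that crosslinks collagen IV, rose from 835 ± 33.0 to 2645 ± 252 CPM. P3H2, a prolyl hydroxylase known to act on collagen IV, fell from 46.7 ± 2.86 to 1.44 ± 0.525 CPM (log2 fold change -5.01). COLGALT2, a collagen galactosyltransferase, fell from 50 to 72 counts in GM samples to 13 to 16 counts in DM samples. PXDN was not listed by symbol and MIA2 held no counts.

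Of 20 turnover genes, 18 were tested, and 4 were called higher and 3 lower (list median 0.66 on the log2 scale), beside 15.0% and 10.3% of all tested genes. MMP2, a gelatinase that cleaves collagen IV, rose from 1525 ± 12.2 to 6713 ± 602.5 CPM. TIMP3, an inhibitor of metalloproteinases, rose by 1.81 on the log2 scale, and CTSB, a lysosomal protease, rose by 1.67. PLAU, the urokinase plasminogen activator, fell by 2.01 and ADAMTS1 fell by 2.28. TIMP4 fell from 37 to 62 counts in GM samples to 3, 9 and 10 counts in DM samples. The intervals of TIMP3 and TIMP4 lie on the opposite strand of SYN3 and SYN2, and whether counting used the strand is not given in the sources used here. MMP3 and CTSL were not listed by symbol.

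**Figure D5:**
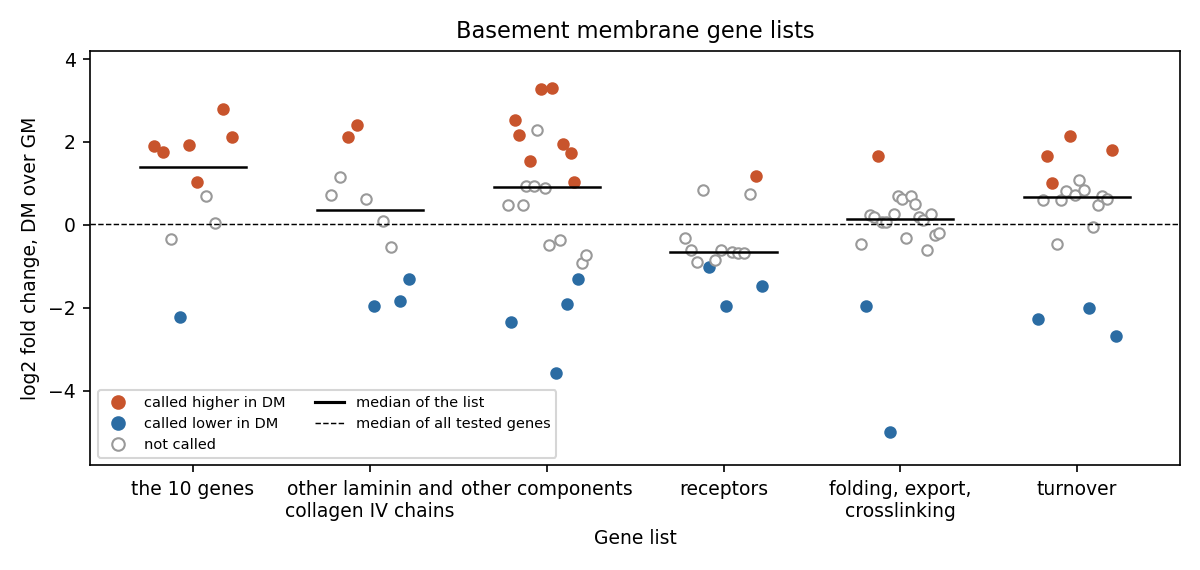
Log2 fold change of DM over GM for the tested genes of 6 lists, with filled points for genes called higher (orange) or lower (blue), open points for genes not called, a bar at each list's median and a dashed line at the median of all tested genes. The 10 basement membrane genes have the highest median (1.40) and the receptors the only median below 0 (-0.66).

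Markers of other cell types that make basement membrane were measured beside these results. Their calls stand beside 15.0% of all tested genes called higher and 10.3% called lower. Of 7 endothelial markers, the summed CPM was 4.06 to 4.83 in the GM samples against 5.21 to 6.13 in the DM samples. TEK, called higher with 1.27 to 1.57 CPM in GM and 3.63 to 4.78 CPM in DM samples, carried the higher sum, while CDH5, TIE1 and VWF were called lower and the list median was -0.74 on the log2 scale. PECAM1 was at or below 0.219 CPM throughout. Among Schwann cell markers, ERBB3 was at 1.13 to 2.61 CPM in the GM samples against 32.8 to 44.4 CPM in the DM samples, while SOX10 and CDH19 each stayed below 0.2 CPM. Epithelial markers summed to 30.8 to 37.6 CPM in the GM samples against 7.54 to 9.48 CPM in the DM samples, but only CDH1 was called lower. KRT8, KRT18 and CLDN4 were called higher, from at most 4 counts in any GM sample to at most 22 in any DM sample. EPCAM held 1 count in GM replicate 3 and 0 in every other sample, and was not tested. Pericyte and smooth muscle markers summed to 1258 to 1453 CPM in the GM samples against 1548 to 1906 CPM in the DM samples, mostly from ACTA2, which was not called. PDGFRB was the only one of the 6 called, beside 25.3% of all tested genes. It rose from a mean of 69.8 to 239 CPM (edgeR log2 fold change 1.78, adjusted p = 5.34e-08). CSPG4 was at 147 CPM in DM replicate 3 and at 53.6 to 65.7 CPM in the other samples, MCAM had a log2 fold change of -0.65 without a call, and RGS5 was at or below 0.106 CPM.

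Fibroblast markers were mostly higher in DM samples. Their summed CPM was 24622 to 24838 in the GM samples against 76416 to 96328 in the DM samples, mostly from COL1A1 and COL3A1. Of the 5 tested markers, 4 were called higher, beside 15.0% of all tested genes, while TCF21 was at or below 0.185 CPM. Their sum was lowest among DM samples in replicate 3, as were LAMA4, LAMB1, LAMC1 and NID2, whereas COL4A1, COL4A2, NID1, HSPG2 and LAMA1 were highest there. The 7 listed muscle markers summed to 2676 to 3075 CPM in the GM samples against 3787 to 5446 CPM in the DM samples, and this sum was highest in DM replicate 3. It was carried by MYH3 and DES, and CKM was also highest in that replicate. PAX7, MYOD1 and MYOG were at their lowest DM value there, and MYF5 lay between the other DM samples. The part of these cell types in the results was not tested, and in bulk samples more cells of a type and more RNA per cell cannot be told apart.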

How the data were processed

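PolyA-selected RNA of 3 GM and 3 DM samples was sequenced. The authors deposited raw counts per gene and per mRNA, and RPKM values made by the authors from these counts, the gene length and the sample's summed counts. The methods name HISAT2 and the buffalo genome, the tables list cattle identifiers, and the submitters' processing notes name Bowtie 0.12.2 and the mouse builds mm8 and mm9, so that the alignment behind the counts is not settled. The counting tool is not given in the sources used here. The deposited lists of differentially expressed features hold the authors' fold changes and p-values and were not used, nor was the ncRNA table.

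The quasi-likelihood test of edgeR 4.0.16 (glmQLFit, then glmQLFTest, with TMM factors; R 4.3.3) was run on genes with at least 10 counts in total. Standard errors were taken from the F statistic, and 95% intervals from the test's degrees of freedom. Ratios and shares were compared in Python 3.11.15 with scipy 1.17.1 by exact permutation tests. The edgeR step was tested on simulated counts with changes placed only in genes of higher count. That run does not cover changes at low counts or a sample that stands apart. Groups and replicate numbers come from the sample titles, and no batch is named. The main tests did not pair samples by number, and the sources used here do not say whether same-numbered samples share a culture. Genes named outside the 10 are other laminin and collagen IV chains, the 3 largest rises and falls called in each list, and the 5 genes closest to LAMA1. Cell type markers come from the marker lists, and those singled out there, like ITGB1 and DAG1, were chosen after their values were seen. The genes and lists were chosen with earlier results of these data known. Alternatives were DESeq2 1.42.0, other normalizations, filters and thresholds, a replicate block, the mRNA table, other denominators, raw counts and each sample left out. Some genes of the lists are not reported here by name, while counts of calls cover all tested genes of a list.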

Additional observations from a re-analysis of the deposited data

How the results depend on the processing

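The 10 genes kept the count of 7 calls, or between 6 and 9, under all alternatives run, and the 7 ratios and shares kept their direction in all 62 recomputations. The calls for NID1, NID2, LAMA2, COL4A1, COL4A2 and LAMA1 were kept in every alternative, whereas LAMA4 was lost with library size alone, without DM replicate 1 and in the test against a fold change of 2 (adjusted p = 0.604). In the test against a fold change of 2 LAMA1 passed only narrowly (adjusted p = 0.0494). The log2 fold change of LAMA1 ranged from -3.54 to -1.81. Estimates that changed sign were those of LAMC1 (-0.0646 with library size alone, and -0.0155 to 0.0813 with each sample left out), LAMB2 (-0.0154 with library size alone) and LAMA3 (-0.16 to 0.93 with each sample left out), none of them called.

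Calls among all genes were 2197 of 11587 tested with the study's RPKM rule, in place of 3936 of 15576 (25.3%). They were 2293 of 15576 in the test against a fold change of 2 and 9813 of 15576 (63.0%) with no minimum fold. The other laminin and collagen IV chains had 5 calls of 10 tested in the main fit, with a median log2 fold change of 0.36. These chains gave 2 calls of 4 tested with the RPKM rule and 3 of 10 against a fold change of 2. Receptors gave 14 of 14 with no minimum fold and 2 of 14 against a fold change of 2, in place of 4. Folding, export and crosslinking genes gave 1 of 18 with the RPKM rule and 15 of 20 with no minimum fold, in place of 3. Turnover genes gave 14 of 18 with no minimum fold, in place of 7.

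GM and DM replicates share numbers, but the deviations of same-numbered samples correlated at -0.0546 to -0.00635, and no sample correlated best with its own number. With the replicate block 7 of the 10 genes were called, and 3837 of all genes. FREM2 lost its call there (adjusted p = 0.0655), and no other named gene did.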
